A study of Mus musculus with 16 samples.

Results

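The retinoic acid genes described here are 9 genes for making, carrying, degrading and sensing retinoic acid: Aldh1a1, Aldh1a2, Aldh1a3, Rbp4, Crabp1, Crabp2, Cyp26b1, Rara and Rarg. They were taken by their symbol in the platform annotation, which gave 12 of the 45101 probe sets on the array and 9 of the 18193 genes with a probe set. The list, and the use of the groups and replicate sets to read it, were chosen from measured values of these same arrays, so the values below are a description, and the adjusted p-values are the output of the fit over all genes and no independent support for the choice.

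RNA of the lower (distal) 5 mm of 1 femur, the left, was measured on 16 arrays, 1 per mouse and without pooling. The mice were ovariectomized C57BL/6 females. In the ERaKO mice the bone-resorbing osteoclasts lack estrogen receptor alpha, and the others were wild type (WT). The 4 groups of 4 mice were ERaKO mice 4 hours after estrogen (ERaKO-E2-4hr), ERaKO mice without estrogen (ERaKO-OVX), WT mice 4 hours after estrogen (WT-E2-4hr) and WT mice given vehicle (WT-OVX). The design asks how femoral genes respond to estrogen and whether that response differs when osteoclasts lack the receptor. The vehicle of the ERaKO-OVX mice is named in the series design and not in their labels. The sources used here do not give the estrogen compound, its dose, the Cre line behind the deletion or the age of the mice. The mice shared the ovariectomy, and all cells other than osteoclasts were meant to keep the receptor. The tissue was the whole bone end, in which markers of marrow, cartilage, muscle and fat were also measured, so in these bulk samples fewer cells of a type and less RNA per cell cannot be told apart.

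Retinoic acid is made from vitamin A (retinol) in 2 oxidation steps, retinol to retinal and retinal to retinoic acid, and the last step is catalysed by the retinaldehyde dehydrogenases of the Aldh1a family. Retinol travels in blood bound to Rbp4 and transthyretin, retinoic acid is bound inside cells by the Crabp proteins and is broken down by Cyp26 enzymes. It acts through the nuclear receptors RAR, which bind DNA with RXR partners, and in bone it is known to affect growth plate chondrocytes, osteoblasts and osteoclasts.

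The targeted gene was checked first. The brightest of the 3 Esr1 probe sets gave signals of 409 to 753 in ERaKO-E2-4hr mice, 580 to 723 in ERaKO-OVX mice, 434 to 664 in WT-E2-4hr mice and 792 to 1100 in WT-OVX mice. ERaKO-OVX femurs thus lay below WT-OVX femurs without overlap, while the groups after estrogen overlapped. WT-E2-4hr femurs also lay below WT-OVX femurs without overlap. That estrogen difference was -0.89 ± 0.19 (SE) on the log2(signal + 16) scale, with an adjusted p of 0.189 by limma. The difference between ERaKO-OVX and WT-OVX was smaller, -0.55 ± 0.19 (SE) on the same scale, with an adjusted p of 0.952 by limma. Other cells keep the gene, and the sources used here do not say whether the probes lie in the deleted part, so this checks the labels only in part.

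Bone genes were plainly present, with signals of 3300 to 13900 for the osteoclast protease Ctsk and 26300 to 37600 for the collagen gene Col1a1 over the 16 arrays. Median signals lay between 153 and 217. On 3 arrays (replicate 1 of ERaKO-E2-4hr and replicate 2 of WT-E2-4hr and of WT-OVX) the bacterial spike-in signal was 28520 to 50790, against 7752 to 14560 on the other 13, and the Actb 3' to 5' ratio was 2.07 to 3.53, against 1.17 to 1.5. Replicates 3 and 4 of all groups stood apart from replicates 1 and 2, with summed skeletal muscle markers (10 of 10 called lower) of 3178 to 30733 against 66594 to 579276. Summed osteoclast markers (7 of 8 called higher) were 40540 to 61976 against 19241 to 37907. Over all tested genes 17.9% were called between these sets, in either direction. The 18S rRNA control signal also differed without overlap, 841.8 to 9158 in replicates 3 and 4 against 15610 to 30650 in replicates 1 and 2. The sources used here do not say what the replicate numbers stand for.

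The promoter windows of the 2 members with the largest knockout difference under vehicle that have an entry are shown first, from 250 bases before to 50 after the start of the gene (RefSeq, GRCm38.p6). Motifs searched on both strands were the receptor half-sites GGTCA and AGTTCA, the palindromic estrogen response element (GGTCA, then any 3 bases, then its reverse complement, so that it overlaps with GGTCA), the TATA box TATAAA and the GC box GGGCGG. Capitals mark the matches, with TGACC standing for a GGTCA read on the other strand, and CCGCCC likewise for a GC box. The Aldh1a2 window lies at chr9:71215539-71215838 on the + strand and the Cyp26b1 window at chr6:84593761-84594060 on the - strand.
Aldh1a2: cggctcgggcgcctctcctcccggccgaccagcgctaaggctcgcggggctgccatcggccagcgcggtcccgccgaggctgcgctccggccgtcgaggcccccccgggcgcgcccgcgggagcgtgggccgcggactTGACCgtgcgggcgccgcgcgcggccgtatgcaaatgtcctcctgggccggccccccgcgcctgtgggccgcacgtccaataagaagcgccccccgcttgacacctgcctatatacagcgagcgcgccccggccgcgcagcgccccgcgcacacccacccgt
Cyp26b1: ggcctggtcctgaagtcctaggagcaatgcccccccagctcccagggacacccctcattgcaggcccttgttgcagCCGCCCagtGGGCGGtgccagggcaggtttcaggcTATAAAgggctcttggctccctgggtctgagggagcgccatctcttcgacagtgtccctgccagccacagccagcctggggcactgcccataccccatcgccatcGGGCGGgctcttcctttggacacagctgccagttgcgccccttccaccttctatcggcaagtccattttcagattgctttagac
The Aldh1a2 window held 1 GGTCA match and none of the other motifs, and 78% of its bases were G or C, against a median of 52.7% over all windows. The Cyp26b1 window held 3 GC boxes and 1 TATA box and no half-site. The letters GGTCA were in 40.5% of 32851 mouse promoter windows, TATAAA in 13.6%, GGGCGG in 35.7%, AGTTCA in 14% and the full estrogen response element in 0.07%. Among the 7 members with an entry (13 windows), 5 held GGTCA, 5 GGGCGG, 2 TATAAA, 1 AGTTCA and 0 the full element. Some members have several windows, so these counts per gene cannot be set against the shares per window. A match is a string of letters and not a measured binding site.

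Of the 9 members, 6 passed the filter that left out the 30% of genes with the lowest mean, so that 12735 genes were tested. Aldh1a1, Aldh1a2, Aldh1a3, Rbp4, Cyp26b1 and Rarg passed it, and Crabp1, Crabp2 and Rara did not. Values are deposited signal intensities, each difference is one of log2(signal + 16) with its standard error, and mice are given in the order of replicates 1, 2, 3 and 4. Each fold is that of signal + 16, which understates the fold of the signal itself, most at low signals.

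Aldh1a2, which encodes retinaldehyde dehydrogenase 2, a main source of retinoic acid in the embryo, was lower in ERaKO-OVX femurs than in those of any other group. Its mean was higher with estrogen than with vehicle in both genotypes. Its signals were 253, 329, 644 and 487 in ERaKO-E2-4hr mice and 76.3, 162, 195 and 199 in ERaKO-OVX mice. They were 1115, 513, 892 and 941 in WT-E2-4hr mice and 648, 569, 494 and 541 in WT-OVX mice. All 4 ERaKO-OVX mice lay below every mouse of the other 3 groups, whereas WT-E2-4hr and WT-OVX overlapped through replicate 2, and ERaKO-E2-4hr and WT-E2-4hr overlapped through replicate 3 of the knockout. The means were 428 ± 174 in ERaKO-E2-4hr, 158 ± 56.9 in ERaKO-OVX, 865 ± 254 in WT-E2-4hr and 563 ± 64.5 in WT-OVX (SD, n = 4 each).

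Under vehicle the knockout difference of Aldh1a2 was -1.80 ± 0.31, 3.49-fold lower in ERaKO-OVX than in WT-OVX. It had the smallest p of all 12735 genes (2.6e-05 by limma), and its adjusted p was 0.331. After estrogen the difference between ERaKO-E2-4hr and WT-E2-4hr was -1.02 ± 0.31, with an adjusted p of 0.658 by limma. Averaged over treatments the knockout difference was -1.41 ± 0.22, again the smallest p of all genes, with an adjusted p of 0.102 by limma. That value passed the threshold of 0.05 without replicate 2 of WT-E2-4hr (-1.53, adjusted p 0.0356 by limma) and without replicate 3 of ERaKO-E2-4hr (-1.52, adjusted p 0.0425 by limma). With a term for the replicate set the adjusted p was 0.0164 by limma, and with the replicate number as a block it was 0.0801. The difference under vehicle was -1.32 when fitted to replicates 3 and 4 alone and -2.28 when fitted to replicates 1 and 2 alone. With array quality weights it was -1.71 and passed the threshold (adjusted p 0.0272 by limma), and with the 3 high spike-in arrays left out it was -1.80 and did not (0.309).

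Estrogen against vehicle gave an Aldh1a2 difference of 1.34 ± 0.31 in ERaKO mice, 2.54-fold higher, with no overlap and an adjusted p of 0.739 by limma. In WT mice it was 0.56 ± 0.31, with an adjusted p of 0.639. The difference between the estrogen responses was 0.78 ± 0.44 (adjusted p 0.693 by limma), so a larger response in the knockout was not shown. The estrogen difference in ERaKO mice and the knockout difference under vehicle share the ERaKO-OVX mice, so the low values of that group enter both. In replicates 3 and 4 alone, and then in replicates 1 and 2 alone, the estrogen difference was 1.44 and 1.25 in ERaKO mice and 0.81 and 0.31 in WT mice. Over all 30 alternative settings Aldh1a2 kept its sign in each comparison. Many of these settings cannot change the difference, among them the block, the replicate-set term and leaving out an array of a group outside the comparison. For those settings the kept sign is no test.

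**Figure D1:**
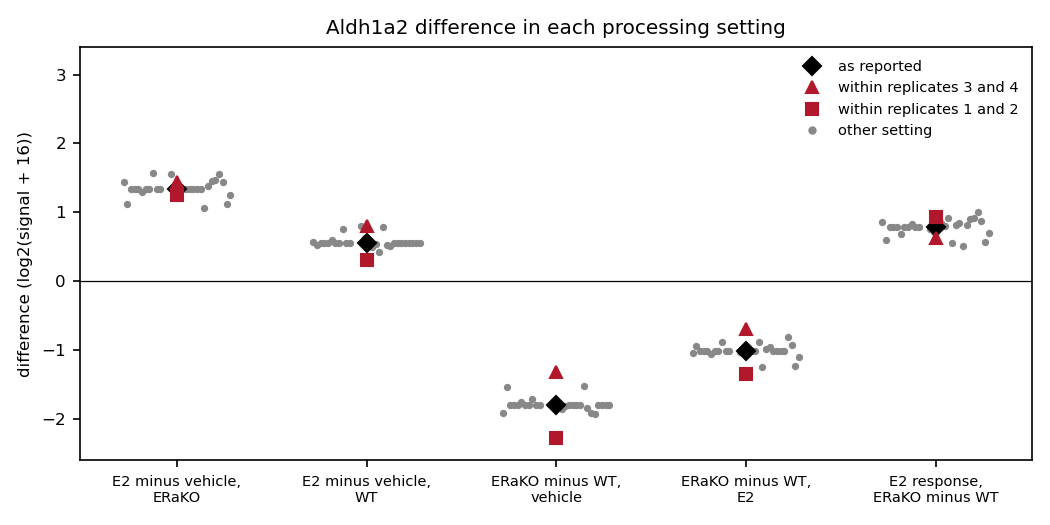
Aldh1a2 differences (vertical axis, log2(signal + 16) scale) in 5 comparisons (horizontal axis). Diamonds are the values as reported, red triangles the values from replicates 3 and 4 alone, red squares those from replicates 1 and 2 alone, and grey dots the other alternative settings. No comparison crosses 0, and the knockout difference under vehicle spans the within-set values of -1.32 and -2.28.

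The low Aldh1a2 signal was not shared by its neighbours on chromosome 9. The 5 tested genes on each side, chosen after the Aldh1a2 values were seen, differed between ERaKO-OVX and WT-OVX by -0.24 to 0.17, and 0 of these 10 had an unadjusted p under 0.05 by limma. The water channel gene Aqp9 and the polymerase subunit gene Polr2m, which flank Aldh1a2, differed by 0.12 and 0.00. The 10 neighbours of Cyp26b1 differed by -0.48 to 0.15, with 6 of them lower. Those of Aldh1a3 differed by -0.41 to 0.40, with 4 of 10 lower. For both genes 0 neighbours had an unadjusted p under 0.05 by limma.

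Aldh1a3, a related enzyme of the same step, is represented by 3 probe sets, and not all of them showed the same pattern. The probe set that represents the gene and a further, weaker probe set both had WT-OVX above ERaKO-OVX and WT-E2-4hr without overlap. In the remaining probe set all groups overlapped. The one that represents the gene, with the highest mean, gave 911, 272, 92.4 and 57.3 in ERaKO-E2-4hr mice and 111, 154, 172 and 22.4 in ERaKO-OVX mice. It gave 120, 17.1, 10.5 and 31.9 in WT-E2-4hr mice and 284, 374, 265 and 233 in WT-OVX mice. WT-OVX lay above ERaKO-OVX and above WT-E2-4hr without overlap, and ERaKO-E2-4hr overlapped each of the other groups, with its highest value on an array of high spike-in signal.

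For this probe set the estrogen difference was -2.62 ± 0.70 in WT mice, 6.16-fold lower after estrogen, with an adjusted p of 0.259 by limma. In ERaKO mice it was 0.94 ± 0.70, and the difference between the responses was 3.56 ± 0.99 (adjusted p 0.631 by limma). The knockout difference was -1.43 ± 0.70 under vehicle and 2.13 ± 0.70 after estrogen, with adjusted p-values of 0.952 and 0.671 by limma. With the 3 high spike-in arrays left out the Aldh1a3 estrogen difference was -2.31 in WT mice and 0.24 in ERaKO mice, and the knockout difference after estrogen was 1.24. With array quality weights the last was 0.98 and the difference between the responses 2.24. In replicates 3 and 4 alone, and then in replicates 1 and 2 alone, the estrogen difference was -2.89 and -2.35 in WT mice, but 0.07 and 1.82 in ERaKO mice.

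The other 2 Aldh1a3 probe sets gave smaller differences. The first averaged 42.3 ± 19.8 in ERaKO-E2-4hr, 33.5 ± 3.6 in ERaKO-OVX, 25.7 ± 4.06 in WT-E2-4hr and 44.9 ± 3.01 in WT-OVX (SD, n = 4 each), and its 4 WT-OVX values, 40.7 to 47.2, lay above those of ERaKO-OVX and WT-E2-4hr without overlap. Its estrogen difference in WT mice was -0.55 ± 0.29. The second averaged 65.8 ± 60.2, 43.9 ± 30.2, 48 ± 37.9 and 43.1 ± 56.8 in the same 4 groups in that order, its estrogen difference in WT mice was 0.32 ± 0.62, and all groups overlapped.

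Aldh1a1, the retinaldehyde dehydrogenase also found in blood-forming and other adult cells, differed little between groups. Its signals were 2828, 3148, 2652 and 1959 in ERaKO-E2-4hr mice and 3453, 2918, 2983 and 3203 in ERaKO-OVX mice. They were 2927, 2347, 1836 and 2275 in WT-E2-4hr mice and 3249, 2677, 1474 and 2560 in WT-OVX mice. All 4 groups overlapped. The knockout difference was 0.39 ± 0.22 under vehicle and the estrogen difference -0.26 ± 0.22 in ERaKO mice and -0.05 ± 0.22 in WT mice, with adjusted p-values of 0.952, 0.981 and 0.972 by limma.

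**Figure D2:**
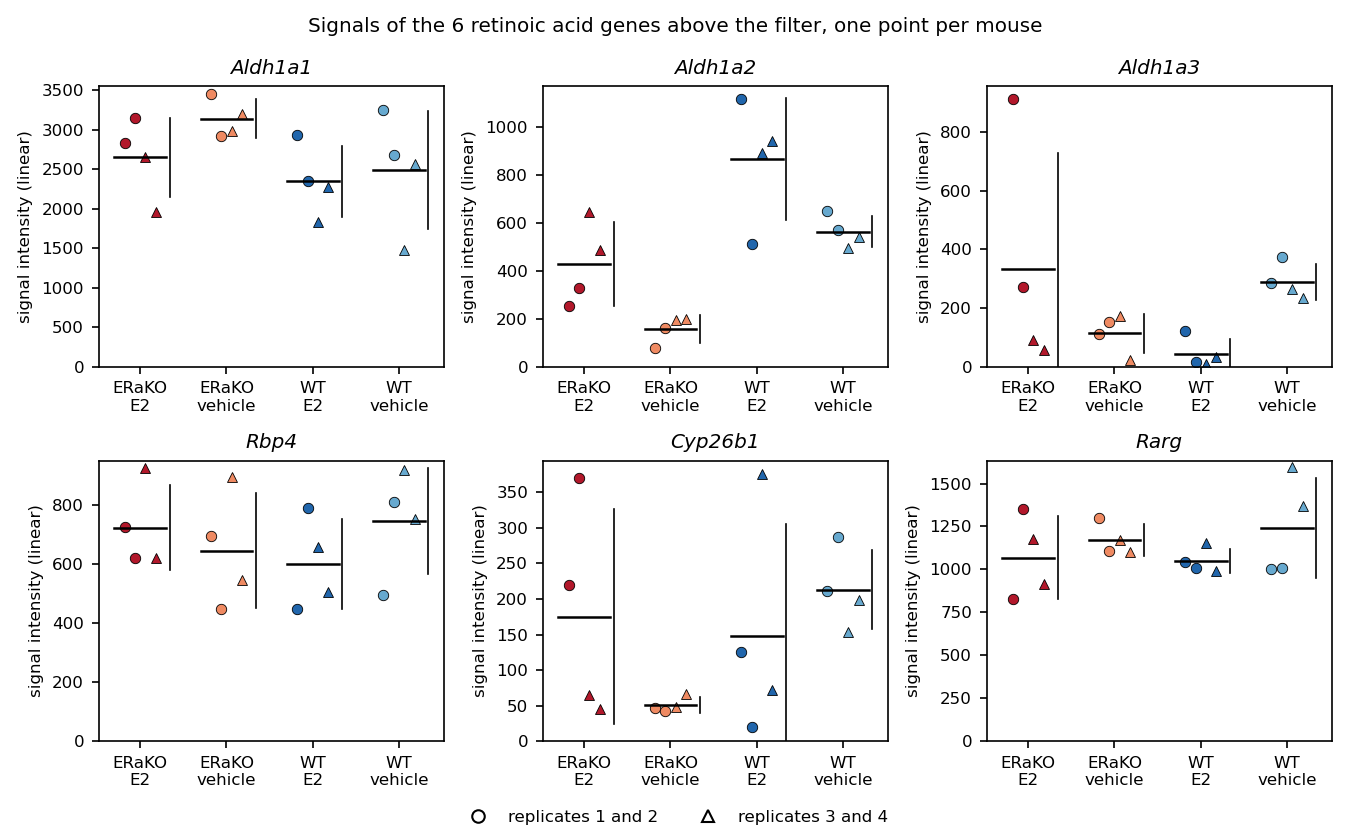
Signal intensity (vertical axis, linear) of the 6 tested members in ERaKO-E2-4hr, ERaKO-OVX, WT-E2-4hr and WT-OVX mice, 1 point per mouse. Circles are replicates 1 and 2, triangles replicates 3 and 4, the horizontal line is the mean and the vertical line the SD, cut at 0. Aldh1a2 is lowest in all 4 ERaKO-OVX mice, and Rbp4 and the tested Rarg probe set overlap between all groups.

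Rbp4, the plasma carrier of retinol, is made mainly by liver and fat. Its signals were 725, 621, 925 and 621 in ERaKO-E2-4hr mice, 694, 446, 896 and 546 in ERaKO-OVX mice, 448, 788, 657 and 506 in WT-E2-4hr mice and 496, 810, 919 and 753 in WT-OVX mice. The groups overlapped throughout. Its differences in the 4 comparisons of pairs of groups lay between -0.30 and 0.28, each with an SE of 0.24.

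The intracellular carriers Crabp1 and Crabp2 lay below the filter. Crabp1 signals were 2.62 to 35.6 over the 16 arrays and Crabp2 signals 6.84 to 58.4, with both of the highest Crabp2 values, 58.4, in replicates 2 and 4 of WT-OVX. In the fit over all probe sets, their lowest adjusted p over the 7 comparisons between groups was 0.924 for Crabp1 and 0.764 for Crabp2 by limma. The Crabp2 value belonged to estrogen in WT mice, where Crabp2 differed by -0.78 ± 0.33 (unadjusted p 0.0283). Its estrogen average was -0.52 ± 0.23 (unadjusted p 0.0394, adjusted p 1 by limma). Between replicates 3 and 4 and replicates 1 and 2 the adjusted p was 0.326 for Crabp1 and 0.86 for Crabp2 by limma. At such low signals a fold on this scale understates a difference.

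Cyp26b1, which oxidises retinoic acid and so removes it, was, like Aldh1a3, lower in ERaKO-OVX than in WT-OVX mice. Its signals were 220, 370, 65.8 and 45.2 in ERaKO-E2-4hr mice and 47.1, 42.9, 48.1 and 67.1 in ERaKO-OVX mice. They were 126, 20, 375 and 71.9 in WT-E2-4hr mice and 212, 287, 153 and 199 in WT-OVX mice. ERaKO-OVX lay below WT-OVX in all 4 mice, and both estrogen groups spread over the range of both. The knockout difference under vehicle was -1.75 ± 0.63, 3.36-fold lower, with an adjusted p of 0.952 by limma. It was -1.39 in replicates 3 and 4 alone and -2.11 in replicates 1 and 2 alone.

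The estrogen differences of Cyp26b1 were 1.13 ± 0.63 in ERaKO mice and -0.96 ± 0.63 in WT mice, and the difference between them was 2.09 ± 0.88 (adjusted p 0.636 by limma). The difference between responses was 0.00 in replicates 3 and 4 alone and 4.18 in replicates 1 and 2 alone. The knockout difference after estrogen was likewise -1.39 in replicates 3 and 4 alone and 2.08 in replicates 1 and 2 alone, against 0.34 ± 0.63 over all arrays. With the 3 high spike-in arrays left out that Cyp26b1 difference was -0.45, the estrogen difference in WT mice was -0.25 and the difference between responses was 1.15.

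The receptor gene Rarg, a RAR form prominent in cartilage and skin, had the smallest standard errors of the tested members. The probe set that represents it gave 828, 1351, 1180 and 913 in ERaKO-E2-4hr mice and 1300, 1108, 1173 and 1100 in ERaKO-OVX mice. It gave 1046, 1007, 1151 and 993 in WT-E2-4hr mice and 1000, 1010, 1594 and 1366 in WT-OVX mice. The groups overlapped, and its 4 differences between pairs of groups lay between -0.21 and 0.00, each with an SE of 0.18. The other Rarg probe set differed by 1.06 ± 0.52 between ERaKO-E2-4hr and WT-E2-4hr and by 0.68 ± 0.52 between ERaKO-E2-4hr and ERaKO-OVX, with overlap in both.

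Rara, the more widely expressed RAR form, lay below the filter with a mean signal of 88.2. It averaged 54.6 ± 38.4 in ERaKO-E2-4hr, 89.8 ± 39.9 in ERaKO-OVX, 101 ± 54.9 in WT-E2-4hr and 108 ± 26.4 in WT-OVX (SD, n = 4 each). All groups overlapped, and over the 7 comparisons between groups the lowest adjusted p of Rara was 0.972 by limma in the fit over all probe sets. Between replicates 3 and 4 and replicates 1 and 2 its adjusted p was 0.937 by limma.

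**Figure D3:**
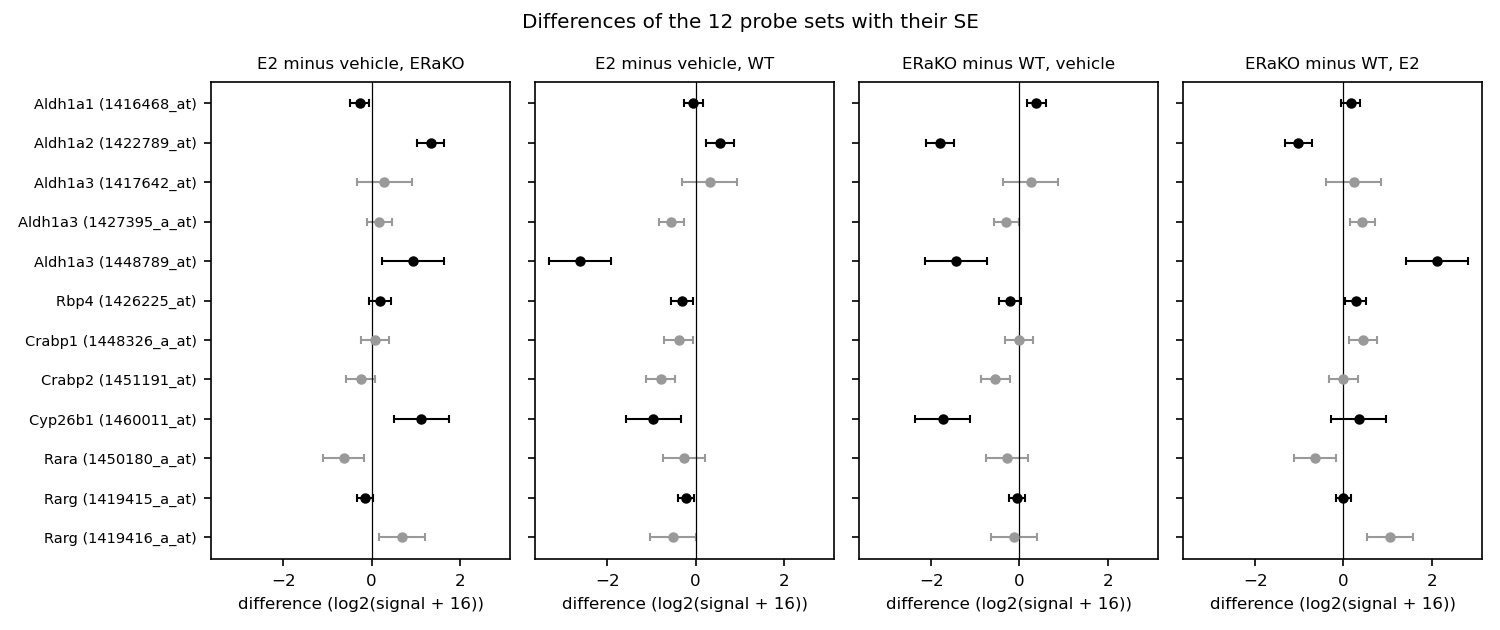
Log2 differences ± SE of each probe set of the members (horizontal axis, log2(signal + 16) scale) for estrogen minus vehicle in ERaKO, estrogen minus vehicle in WT, ERaKO minus WT under vehicle and ERaKO minus WT after estrogen. Black points are the probe sets that represent tested genes, grey points are the others, from the fit over all probe sets. Aldh1a2, Aldh1a3 and Cyp26b1 lie left of 0 in the knockout panel under vehicle, at -1.80, -1.43 and -1.75.

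Counted over the 6 tested members, 0 passed an adjusted p of 0.05 by limma in any comparison between groups. Over all 12735 genes the shares that passed were 0% for the estrogen difference in each genotype, the knockout difference under each treatment, the difference between responses and the knockout average, and 0.0157% for the estrogen average. At an unadjusted p under 0.05, 2 of 6 members (Aldh1a2 and Cyp26b1) were counted for the knockout under vehicle, against 3.60% of all genes, and 2 of 6 (Aldh1a2 and Aldh1a3) for the knockout after estrogen, against 6.75%. For estrogen it was 1 of 6 (Aldh1a2) in ERaKO mice, against 4.90%, and 1 of 6 (Aldh1a3) in WT mice, against 8.69%. The difference between the responses had 2 of 6 (Aldh1a3 and Cyp26b1), against 7.62%. For the averages it was 1 of 6 (Aldh1a2) for estrogen, against 6.15%, and 1 of 6 (Aldh1a2) for the knockout, against 3.03%.

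Groups without overlap gave a like picture. Under vehicle 3 of 6 members (Aldh1a2, Aldh1a3 and Cyp26b1) were lower in every ERaKO-OVX than in every WT-OVX mouse, against 1.87% of all genes, and 0 were higher, against 2.25%. Estrogen gave 1 of 6 higher (Aldh1a2) and 0 lower in ERaKO mice, against 1.50% and 2.88%, and 0 higher and 1 of 6 lower (Aldh1a3) in WT mice, against 2.21% and 2.29%. After estrogen 0 members separated the genotypes in either direction, against 1.22% of genes higher and 1.16% lower. The median knockout difference under vehicle was -0.823 over the 6 members and 0.00264 over all genes. Since the members were chosen with these comparisons in view, neither the counts nor the medians measure how unusual the list is.

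Most markers of muscle, synovium and fat leaned the same way within each comparison below. None of them was called by limma, and their summed signals overlapped between groups. Over all 12735 tested genes 6311 were lower between ERaKO-OVX and WT-OVX. With estrogen, 6541 were higher in ERaKO mice and 6641 were lower in WT mice. Between ERaKO-OVX and WT-OVX, 10 of 10 skeletal muscle markers were lower (median -1.57), 9 of 9 tested synovium, tendon and fibroblast markers were lower (median -0.574), 3 of 3 tested adipocyte markers were lower (median -1.02), and 4 of 10 cartilage markers were lower (median 0.0387), with 0 of these called by limma and 0 at an unadjusted p under 0.05. Summed synovium, tendon and fibroblast signals were 16987 to 123442 in ERaKO-E2-4hr, 21938 to 36367 in ERaKO-OVX, 15627 to 39206 in WT-E2-4hr and 29478 to 65355 in WT-OVX. Summed muscle signals were 3178 to 579276, 6009 to 129106, 7728 to 175584 and 13613 to 400281 in the same order of groups, and summed adipocyte signals were 11065 to 83455, 11831 to 26389, 13020 to 34340 and 20100 to 69159. For estrogen in ERaKO mice 7 of 9 synovium, tendon and fibroblast markers (median 0.417), 10 of 10 muscle markers (median 1.18) and 2 of 3 adipocyte markers (median 0.378) were higher. For estrogen in WT mice 8 of 9 synovium, tendon and fibroblast markers (median -0.966), 9 of 10 muscle markers (median -0.967) and 3 of 3 adipocyte markers (median -0.804) were lower, again with 0 called by limma in either genotype. At an unadjusted p under 0.05 these were 1 in ERaKO mice (Pdgfra) and 2 in WT mice (Lum and Adipoq). Cartilage markers were mostly lower with estrogen in both genotypes, 8 of 10 in ERaKO mice (median -0.406) and 9 of 10 in WT mice (median -0.499). Of these 0 were called by limma, and at an unadjusted p under 0.05 they were 0 in ERaKO mice and 1 in WT mice (Epyc). No marker was at 0 on any array. The part of these tissues in the Aldh1a3 and Cyp26b1 values was not tested.

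Across the 16 arrays Aldh1a3 had a Pearson r of 0.802 with the summed synovium, tendon and fibroblast markers, and 0.611 after group and replicate-set means were subtracted. With the summed adipocyte markers r was 0.661 for Aldh1a3 and 0.474 for Cyp26b1, and 0.498 and 0.401 after subtraction. Rarg had 0.875 with the cartilage markers, and 0.918 after subtraction. It was not tied to cartilage markers alone. With endothelium, osteoclast and osteoblast markers r was 0.589, 0.55 and 0.306, and 0.649, 0.645 and 0.639 after subtraction. Aldh1a1 had 0.623 with the erythroid markers, and 0.419 after subtraction. Aldh1a2 reached 0.6 with none of the marker lists. These values describe arrays that share groups and replicate sets, and carry no p.

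**Figure D4:**
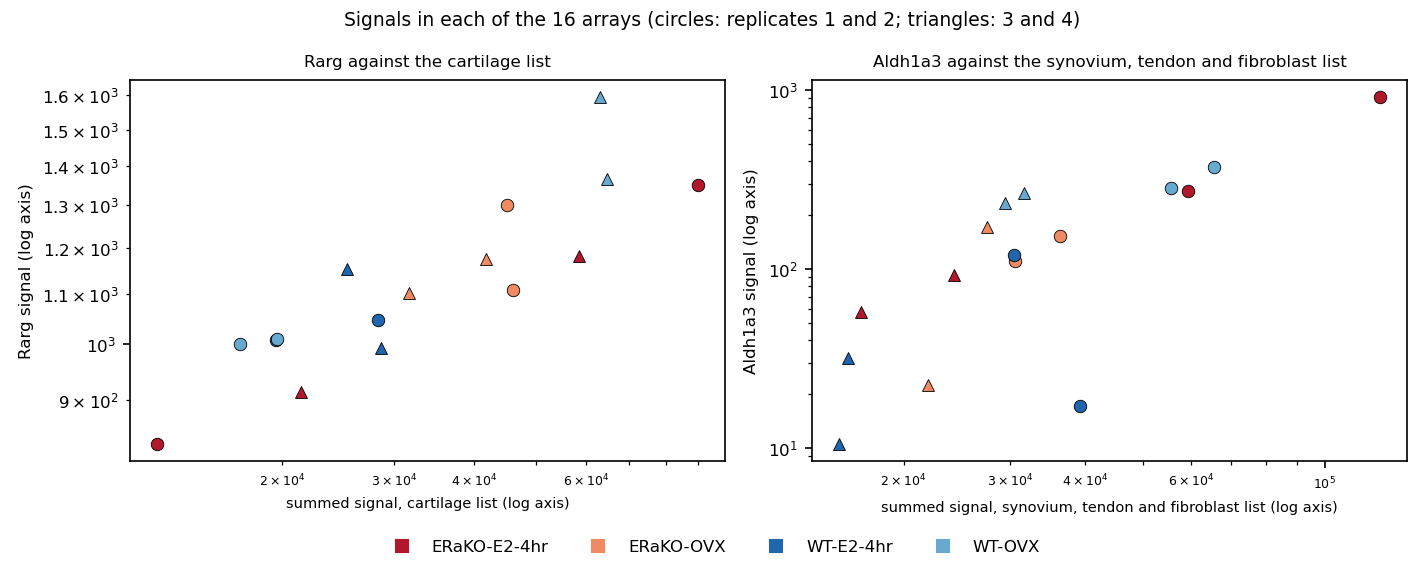
Rarg signal against the summed cartilage markers, and Aldh1a3 signal against the summed synovium, tendon and fibroblast markers, 1 point per array coloured by group, both axes on log scales, circles for replicates 1 and 2 and triangles for replicates 3 and 4. Points climb together in both panels, with r of 0.875 and 0.802 over the 16 arrays.

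The genes of most similar pattern were different for each member. Rarg was nearest to Scrg1 (r 0.91, and 0.913 after subtraction of group and replicate-set means), Hapln1 (0.884 and 0.863) and Snorc (0.868 and 0.868), all known from cartilage. Aldh1a3 was nearest to Akap9 (0.93 and 0.924), Fstl1 (0.922 and 0.82) and Parva (0.909 and 0.826). Aldh1a2 was nearest to Fbn2 (0.799), Serpinb6e (0.781) and Zmiz2 (0.752), and after subtraction these were 0.425, 0.149 and -0.0181. Aldh1a1 was nearest to Tom1l1 (0.92), the globin gene Hbb-b2 (0.894) and Fam220a (0.891), Rbp4 to Spry4 (0.814), D430042O09Rik (0.812) and Adm (0.782), and Cyp26b1 to Grasp (0.856), Cd81 (0.821) and Rora (0.788). Between members r ran from -0.483 for Aldh1a1 with Aldh1a2 to 0.445 for Aldh1a3 with Cyp26b1, so they did not vary as one group.

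The rest of the retinoid pathway was read from a list of 51 genes, of which 42 had a probe set and 31 were tested. Of the 31, 0 passed by limma in any of the 7 comparisons between groups. At an unadjusted p under 0.05 they numbered 1 for estrogen in ERaKO mice (Tgm2), 3 for estrogen in WT mice (Lpl, Rdh14 and Rarres1), 1 for the knockout under vehicle (Ttr) and 1 for the knockout after estrogen (Rxrb). The difference between the responses had 2 (Rdh14 and Rarb), the knockout average 2 (Ttr and Dhrs4) and the estrogen average 0. Over all genes the shares were 4.90%, 8.69%, 3.60%, 6.75%, 7.62%, 3.03% and 6.15% in the same order. Counts this small are no result about the pathway. The median knockout difference under vehicle was -0.0675 over the 31 pathway genes and 0.00264 over all genes.

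Among carriers, Ttr is the transthyretin that holds Rbp4 in plasma, and the brightest of its 4 probe sets was read. It gave 5.76 to 92.4 in ERaKO-OVX mice and 170 to 2157 in WT-OVX mice, without overlap. The WT-OVX mice spread widely (mean 763 ± 946, SD, n = 4). The difference between these 2 groups was -3.10 ± 0.95, with an adjusted p of 0.952 by limma. Liver markers, of which Ttr is one, were lower in 3 of 3 cases in that comparison (median -1.03), and the part of liver RNA in it was not tested. Stra6, the retinol uptake receptor, lay below the filter with means of 32.7 ± 21.2 in ERaKO-E2-4hr, 20.6 ± 3.84 in ERaKO-OVX, 30.9 ± 30.6 in WT-E2-4hr and 28.2 ± 12.1 in WT-OVX (SD, n = 4 each). Lpl, a lipase that frees retinol from its esters among other fats, differed by -0.83 ± 0.38 with estrogen in WT mice.

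Among the enzymes that interconvert retinol and retinal, Rdh10, which catalyses the first step toward retinoic acid, averaged 566 ± 81.3, 513 ± 126, 516 ± 66.2 and 453 ± 64.4 in ERaKO-E2-4hr, ERaKO-OVX, WT-E2-4hr and WT-OVX mice (SD, n = 4 each). Its differences between pairs of groups were 0.13 to 0.18. Dhrs3, which runs the reverse reaction, differed by -0.10 to 0.21. Rdh14 differed by -0.60 ± 0.25 with estrogen in WT mice, and its response differed between genotypes by 0.87 ± 0.36 (adjusted p 0.636 by limma). The degradation gene Cyp26a1 lay below the filter, with means of 78.4, 49.5, 63.3 and 73.2 in the same order of groups.

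Among receptors, Rarb, itself a known retinoic acid target, averaged 167 ± 125 in ERaKO-E2-4hr, 103 ± 47.3 in ERaKO-OVX, 74.5 ± 22.5 in WT-E2-4hr and 153 ± 79.3 in WT-OVX (SD, n = 4 each). Its estrogen difference was 0.50 ± 0.43 in ERaKO mice and -0.83 ± 0.43 in WT mice, and the difference between them was 1.33 ± 0.60 (adjusted p 0.646 by limma). The RXR gene Rxrb averaged 1240 ± 157 in ERaKO-E2-4hr and 1556 ± 260 in WT-E2-4hr, a difference of -0.32 ± 0.15 (adjusted p 0.724 by limma). Rxra differed by -0.31 to 0.51 between pairs of groups.

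Of the target genes, Rarres2 differed by 0.79 ± 0.62 with estrogen in ERaKO mice and by -0.93 ± 0.62 with the knockout under vehicle. Tgm2, a transglutaminase induced by retinoic acid, differed by 0.66 ± 0.31 with estrogen in ERaKO mice (adjusted p 0.981 by limma). Rarres1 differed by -0.72 ± 0.28 with estrogen in WT mice. None of these differences passed the threshold.

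Between replicates 3 and 4 and replicates 1 and 2, 0 of the 6 tested members passed by limma, against 17.9% of all genes. The rule of the list names this comparison, so the values are given only as a description. Aldh1a3 differed by -1.15 ± 0.41 (adjusted p 0.0595 by limma), Aldh1a1 by -0.34 ± 0.13 (0.0676) and Aldh1a2 by 0.42 ± 0.19 (0.138). At an unadjusted p under 0.05 these 3 members were counted, against 32.6% of all genes. Of the 31 other pathway genes, 5 were called lower in replicates 3 and 4 (Lpl by -0.82 ± 0.17, Dhrs3 by -0.35 ± 0.11, Dhrs4 by -0.44 ± 0.13, the alcohol dehydrogenases Adh1 by -1.20 ± 0.19 and Adh7 by -0.94 ± 0.27) and 1 higher (Aldh8a1, by 1.01 ± 0.22), with adjusted p-values of 0.000575 to 0.0307 by limma. In the same comparison 10 of 10 muscle markers and 6 of 9 synovium, tendon and fibroblast markers were called lower. The sets also differed in other lists. Called lower were 2 of 3 adipocyte and 5 of 10 neutrophil lineage markers, and called higher were 7 of 8 osteoclast and 4 of 6 osteoblast markers.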

How the data were processed

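The deposited value of a probe set is a linear signal intensity. The authors used GCOS, according to the submitters' processing notes, and the sources used here give neither its version nor its background steps. On each of the 16 arrays the 2% trimmed mean was 500, so intensities were used as deposited. Array number limits the precision.

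For each gene the probe set with the highest mean log2(signal + 16) was used, and the lowest 30% of genes by that mean were dropped, leaving 12735 with a mean signal from 109. Of 45101 probe sets, 34945 had 1 symbol, 932 had several and were not named, and 64 were controls. Symbols were updated through RefSeq (GRCm38.p6). A linear model with 1 mean per group (12 residual degrees of freedom) was used in limma 3.58.1 (R 4.3.3) with a variance trend. P-values are two-sided, adjusted by Benjamini-Hochberg over all tested genes, with a threshold of 0.05. The replicate-set comparison used group plus set. Probe sets that represent no tested gene were fitted with all probe sets. The fit was run on simulated data with independent noise and no replicate sets, so that run cannot speak for the set differences in these arrays.

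The members, the pathway and marker lists and the rules were chosen with earlier results of these data known. All members were named; pathway genes were named where they passed, had an unadjusted p under 0.05, were among the 2 of largest difference in a comparison, or were core genes of the pathway. Genes of similar pattern were the 3 of highest r. The replicate numbers come from the sample titles, and all 24 same-number pairs of arrays had correlations, of deviations from group means, that exceeded 0.1 (0.178 to 0.593), which meets the rule for pairing. The reported fit has no pairing, and the replicate number as a block is an alternative. The median was 0.314 for these pairs and 0.354 for pairs of the other number within a set. The alternatives were other pseudocounts, filters, probe sets and normalization, blocks, array weights, and leaving out arrays. Detection calls were not used here.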

Additional observations from a re-analysis of the deposited data

Results flagged for a closer look

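In 2 of the 48 sets of 4 mice (12 probe sets in 4 groups), 1 mouse stood so far from the other 3 that its gap exceeded Dixon's 95% critical ratio, and chance gives about 1 in 20 such sets, or 2.4 here. The second of the untested Aldh1a3 probe sets gave 128 in replicate 3 of WT-OVX, against 11.7 to 16.8 in the other 3 mice (ratio 0.897). Rara gave 19.2 in replicate 4 of WT-E2-4hr, against 119 to 133 in the other 3 (ratio 0.931). Neither probe set represents a tested gene.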

How the results depend on the processing

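Between pairs of groups the Aldh1a2 differences kept their sign in 30 of 30 alternatives and those of the tested Aldh1a3 probe set in 29 of 29, since Aldh1a3 and Cyp26b1 were left out by the filter on 50% of genes. Many alternatives, such as the block, the replicate-set term and arrays left out of other groups, cannot change a difference. These counts are therefore only in part a test. The number of members called by limma moved from 0 to 1 for the knockout under vehicle with array quality weights (Aldh1a2, -1.71, adjusted p 0.0272). Aldh1a2 was then the only 1 of all tested genes called, against 0 in the reported fit. A term for the replicate set gave it an adjusted p of 0.0599 by limma. For the estrogen average the weights called 6 genes and the term 8, against 2 in the reported fit, with 0 members among them. The member count moved to 1 for the knockout average with the replicate-set term. For that average it lay between 0 and 1 when single arrays were left out. It was 1 (Aldh1a2) without replicate 2 of WT-E2-4hr or replicate 3 of ERaKO-E2-4hr. For replicates 3 and 4 against 1 and 2 it was 1 (Aldh1a3) with quantile normalization, and between 0 and 1 when single arrays were left out: 1 without replicate 2 of WT-E2-4hr (Aldh1a3), replicate 2 of ERaKO-OVX (Aldh1a1) or replicate 3 of ERaKO-OVX (Aldh1a3). The pathway count in that comparison was 3 once the 3 high spike-in arrays were left out (Lpl, Adh1 and Aldh8a1), against 6. The cause was not tested. With the replicate number as a block, 0 members passed in any of the 7 comparisons, and the block changed no call. The other 463 counts under the alternatives stayed within 1.5 times, and 23 of the member differences moved by more than 1 SD of the replicates, mostly within 1 replicate set. Low signals limit Crabp1, Crabp2, Rara and 2 of the 3 Aldh1a3 probe sets. They also limit the tested Aldh1a3 probe set and Cyp26b1, with signals down to 10.5 and 20 in WT-E2-4hr mice.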
